A study of Drosophila melanogaster with 24 samples.

Results

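The proteasome subunit genes described here are the 31 genes whose deposited names begin with Prosalpha, Prosbeta, Rpn or Rpt followed by a digit, of 12506 gene names listed in at least 1 of 4 tables of expression in whole male flies. By name, 20 of the 31 are ordinary, ubiquitous subunits. The other 11 end in T or R, with or without a number, and are testis-type paralogs of an ordinary subunit. Further subunits of both kinds were deposited under older names and are described apart. The flies were *w1118*, a white-eyed laboratory strain of *Drosophila melanogaster*, either injured by repeated strikes of the HIT (high impact trauma) device, a model of traumatic brain injury, or left uninjured. The 4 conditions were older food (20 to 27 d old, 4 hr on food), older water (20 to 27 d old, 2 hr on water), younger food (0 to 7 d old, 4 hr on food) and younger water (0 to 7 d old, 2 hr on water). Each condition had 3 injured and 3 uninjured libraries, 24 in all over 8 groups. All 8 groups shared the strain, the sex and the use of the whole body. Diet and hours changed together, so that their parts in a food against water difference cannot be told apart.

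The proteasome is the large protease that degrades proteins tagged with ubiquitin. Its core particle is a stack of rings. The alpha subunits form the outer rings and the gate, and the beta subunits form the inner rings, in which *Prosbeta1*, *Prosbeta2* and *Prosbeta5* encode the caspase-like, trypsin-like and chymotrypsin-like subunits. A regulatory particle caps the core. Its Rpt subunits are ATPases that unfold the substrate, and its Rpn subunits are non-ATPases that bind ubiquitin chains (*Rpn1*), remove them (*Rpn11*) or scaffold the particle, roles worked out largely in yeast and mammals. In *Drosophila*, many subunits have a further copy transcribed in the male germline, and *Prosalpha6T* is needed for sperm to mature.

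Each level is the authors' mean for a condition, a log2 CPM (the share of a gene in all counted reads, on edgeR's CPM scale) pooled over its 6 injured and uninjured libraries. A pooled mean has no SD and allows no test, and each table was made from its own libraries, so every difference between conditions below is a description. Because injured and uninjured libraries are pooled, a response to injury that differs between conditions cannot be told apart from age or diet. A gene is called past 1.5-fold where 2 means differ by more than that ratio. The tables listed between 11663 and 12276 genes, and depth per library is not given in the sources used here. The median of the genes in all 4 tables was itself shifted by 0.17 (log2) for older food minus younger food and by 0.15 for older food minus older water, against 0.09 for older water minus younger water and 0.03 for younger food minus younger water.

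All 31 genes were listed in all 4 conditions. Per kilobase of the longest annotated transcript, which allows genes to be compared, the ubiquitous subunits had a median log2 CPM per kb of 6.61 in older food, 7.01 in older water, 6.27 in younger food and 6.09 in younger water. The testis-type paralogs had medians of 2.44 in older food, 1.67 in older water, 4.01 in younger food and 4.03 in younger water on the same scale. Within each condition every ubiquitous gene stood above every testis-type gene, with the exception of *Prosalpha1* in the 2 younger conditions. *Prosalpha1* is an alpha-ring gene, and its mean over the 4 conditions was 4.08 per kb. Summed over genes, the 20 ubiquitous members accounted for 0.315% of the counts in older food, 0.383% in older water, 0.249% in younger food and 0.227% in younger water. With 13 further ubiquitous genes deposited under older names added, the sums were 0.516%, 0.627%, 0.399% and 0.373% in the same order.

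The median core subunit stood above the median regulatory subunit per kilobase in every condition. The 8 ubiquitous core genes had median levels of 7.28 in older food, 7.69 in older water, 6.85 in younger food and 6.88 in younger water. The 12 ubiquitous regulatory genes had 6.47, 6.63, 6.23 and 5.95 log2 CPM per kb in the same order of conditions. Within the beta ring, whose subunits are present in equal numbers in each particle, the 5 genes lay within 0.28 (younger water) to 0.58 (older water) of each other. The highest of them over the 4 conditions was *Prosbeta5* at 7.27 per kb and the lowest *Prosbeta2* at 6.98, but by coding length *Prosbeta7*, a structural beta subunit, was the highest of the ring at 7.86. Of the 3 alpha-ring members *Prosalpha7* was highest at 7.27. Of the 3 ATPase members *Rpt3* was highest at 6.49 and *Rpt4* lowest at 6.10. Among the non-ATPases *Rpn6*, a lid subunit that clamps the regulatory particle to the core, was highest at 7.18. *Rpn1*, a scaffold and ubiquitin receptor, was lowest at 6.04. Genes deposited under older names, described below, were left out of these ranks. Of those, *CG30382* and *Pros25* stood above *Prosalpha7*, and *Pros45* (*Rpt6*) and *Pros26.4* (*Rpt2*) above *Rpt3*.

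**Figure D1:**
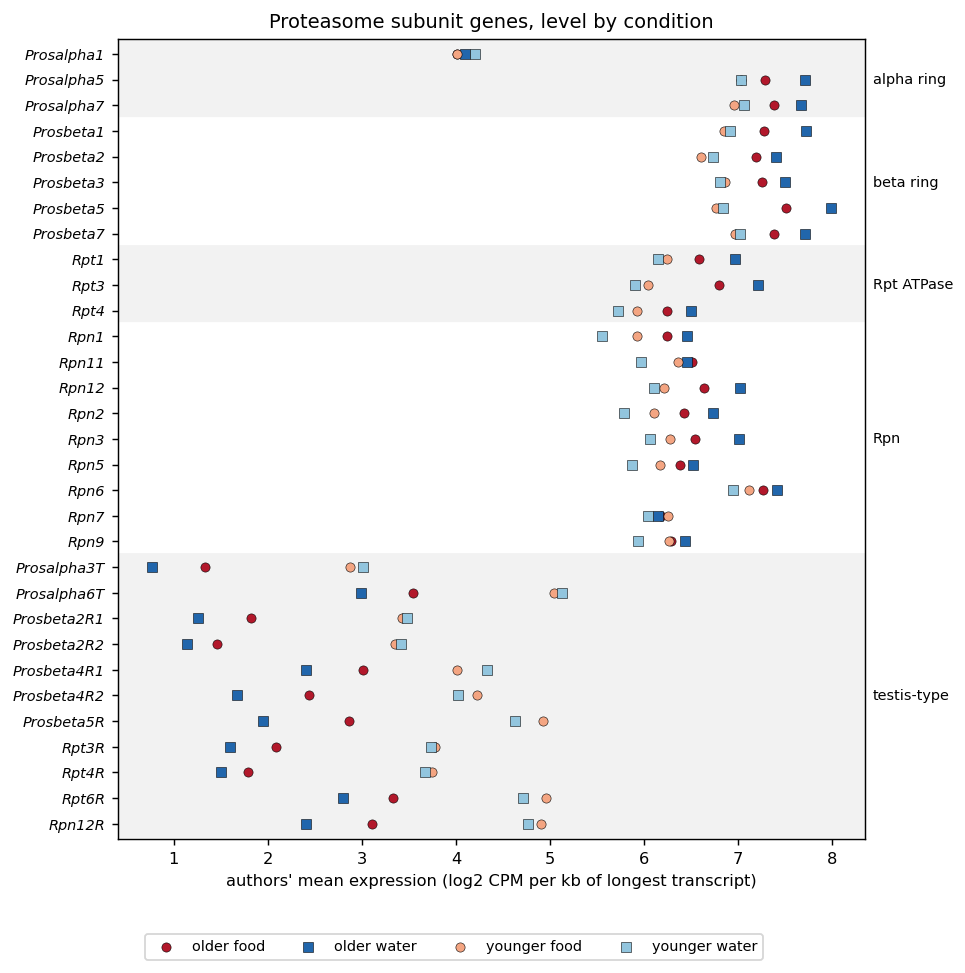
Level of each of the 31 proteasome subunit genes in the 4 conditions, as the authors' mean log2 CPM per kb of longest transcript (horizontal axis), with genes in rows grouped by ring and the testis-type paralogs at the bottom. Each point is 1 pooled mean without an error. Older water is the rightmost point for most ubiquitous genes, whose condition medians run from 6.09 to 7.01, and the leftmost for the testis-type genes, whose medians run from 1.67 to 4.03.

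The low level of *Prosalpha1* has to be read with a gene that lies beside it. *CG30382*, now named *Prosalpha1R*, is a near copy on the same strand with a coding sequence of the same length (732 bases), and reads that match both copies could be split between them in the counting. *CG30382* had a log2 CPM of 7.43 in older food, 7.92 in older water, 6.90 in younger food and 7.12 in younger water. *Prosalpha1* had 3.97 in older food, 4.04 in older water, 3.97 in younger food and 4.16 in younger water. *Prosalpha1* thus took 6.37% (older water) to 11.5% (younger food) of the sum of the pair, and how reads were divided between the copies was not tested. The summed pair reached 7.56, 8.02, 7.08 and 7.30 log2 CPM in older food, older water, younger food and younger water.

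As a share of all counts, ubiquitous subunits were higher in older than in younger flies, more so on water. Relative to ribosomal protein genes, which were higher still with age on food, the ubiquitous subunits were lower in older flies on food. On water, 15 of the 20 were past 1.5-fold higher in older flies, where 14.6% of all 11531 genes in both tables were, and none was past it lower, against 22.8% of all genes. The median difference for older water minus younger water was 0.69 (log2), a 1.62-fold higher level, against 0.09 for all genes. On food, 19 of the 20 were again higher in older flies, where 6961 of all 11806 genes were. However, 3 of the 20 were past 1.5-fold, against 19.9% of all genes, a share no larger than the background. The median on food was 0.32, against 0.16 for all genes. The median ribosomal protein gene stood at 9.74 log2 CPM in older food and 8.885 in younger food. On water it stood at 9.96 in older and 9.34 in younger flies. Scaling to it therefore lowers the age difference of every gene, and all genes were not counted under it. Relative to the median ribosomal protein gene of the same table, 14 of the 20 were higher in older flies on water, with a median of 0.07, and 0 of the 20 on food, with a median of -0.53. In that scaling the number past 1.5-fold on water was 1 higher and 1 lower, in place of 15 and 0, and on food 0 higher and 7 lower. Centred on the shift of all genes, 19 of the 20 were higher on water, 12 of them past 1.5-fold, and 15 on food, none past it.

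Of the 20, *Rpt3* and *Prosbeta5* differed most with age. *Rpt3*, an ATPase of the regulatory base, had a log2 CPM of 7.43 in older food, 7.84 in older water, 6.68 in younger food and 6.54 in younger water. It was 1.69-fold higher in older than in younger flies on food and 2.47-fold higher on water. *Prosbeta5*, the chymotrypsin-like subunit, had 7.70 in older food, 8.18 in older water, 6.95 in younger food and 7.02 in younger water, and was 1.68-fold higher with age on food and 2.22-fold on water. These were the 2 of the 20 past 2-fold on water. *Prosbeta2*, the trypsin-like subunit, had 7.24, 7.45, 6.65 and 6.78 in the same order of conditions. It was the third gene past 1.5-fold on food, with a difference of 0.59 that lay just over the threshold of 0.58, and was 1.59-fold higher on water. All 3 were lower in older flies on food relative to ribosomal protein genes.

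The other core members past 1.5-fold on water were *Prosalpha5*, *Prosalpha7*, *Prosbeta1*, *Prosbeta3* and *Prosbeta7*. *Prosbeta1*, the caspase-like subunit, was 1.75-fold higher, with a log2 CPM of 7.49 in older water and 6.68 in younger water. *Prosbeta3*, *Prosbeta7* and *Prosalpha5* were 1.62-, 1.61- and 1.60-fold higher. *Prosalpha7* was closest to the threshold at 1.51-fold, with 7.63 in older water and 7.03 in younger water, and relative to ribosomal protein genes it differed by -0.02. All of the 8 core members but *Prosalpha1* were therefore past the threshold on water. Of the 7 ubiquitous core genes under older names, 4 were past it. *Prosalpha1* differed by -0.11 on water and 0.001 on food, while its sum with *CG30382* differed by 0.72 on water and 0.48 on food.

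Of the regulatory subunits, *Rpt1* and *Rpt4* were 1.76- and 1.71-fold higher in older water than in younger water. In the non-ATPase group, the scaffold gene *Rpn2* had a log2 CPM of 8.50 in older water and 7.55 in younger water, a 1.93-fold difference. *Rpn3*, *Rpn12* and *Rpn1* followed at 1.92-, 1.88- and 1.88-fold, and *Rpn5* at 1.57-fold. The 4 regulatory members, of 12, not past the threshold on water were *Rpn9*, *Rpn11*, *Rpn6* and *Rpn7*, at 1.42-, 1.40-, 1.38- and 1.07-fold. *Rpn11* encodes the deubiquitinase of the lid, and the other 3 are lid subunits as well. So are *Rpn3*, *Rpn12* and *Rpn5*, which were past the threshold. *Rpn7* was the 1 ubiquitous gene lower in older flies on food, with 6.66 in older food, 6.62 in older water, 6.73 in younger food and 6.52 in younger water, which overlap between the ages. By class, the median age difference on water was 0.68 for core and 0.79 for regulatory genes, and on food 0.42 for core and 0.29 for regulatory genes, so the order of the classes was not the same on both diets.

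**Figure D2:**
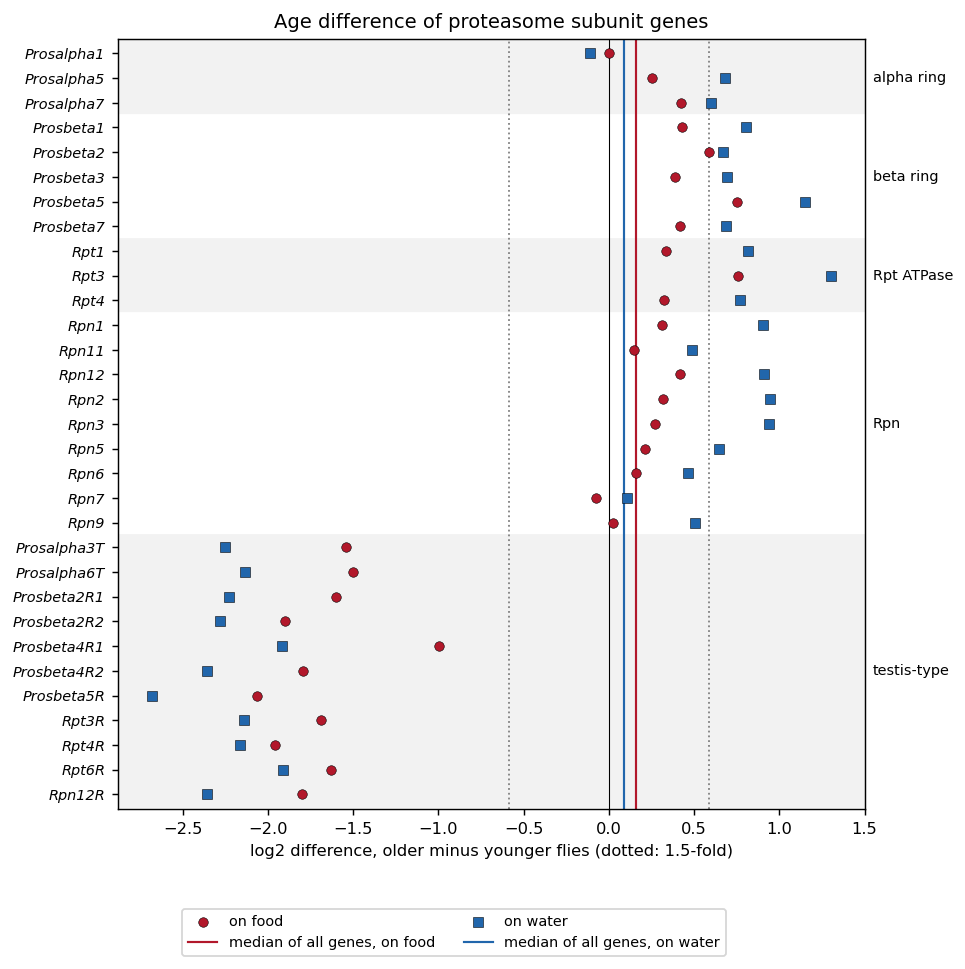
Difference in log2 CPM between older and younger flies (horizontal axis) for each proteasome subunit gene, on food (circles) and on water (squares), without error bars because each is a difference of pooled means. Vertical lines mark the medians of all genes (0.16 on food, 0.09 on water), and dotted lines mark 1.5-fold. Ubiquitous genes lie mostly to the right, 15 of 20 past 1.5-fold on water and 3 on food, and all 11 testis-type genes lie to the left. Relative to ribosomal protein genes, the 20 ubiquitous genes all move to the lower side on food and 6 of them on water. That scaling moves every gene to the left.

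All 11 testis-type paralogs were lower in older than in younger flies, past 1.5-fold on both diets. On food the background was 24% of all genes past 1.5-fold lower, and on water 22.8%. The median difference was -1.69 on food, a 3.22-fold lower level in older flies, and -2.23 on water, a 4.68-fold lower level. All 11 were lower with age under each of the 4 scalings tried. In whole flies, fewer cells of a type and less RNA per cell cannot be told apart.

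Among the core paralogs, *Prosbeta5R* had a log2 CPM of 3.005 in older food, 2.10 in older water, 5.07 in younger food and 4.78 in younger water. It was the paralog with the largest age difference on both diets, 4.18-fold lower in older flies on food and 6.41-fold lower on water, while *Prosbeta5* itself differed in the other direction. *Prosalpha6T* had 3.57 in older food, 3.02 in older water, 5.07 in younger food and 5.15 in younger water. *Prosalpha3T*, the lowest paralog per kilobase, had 1.16, 0.60, 2.70 and 2.84 in the same conditions. Both alpha-type genes were thus lower in older flies, by 2.83- and 2.91-fold on food and by 4.40- and 4.76-fold on water.

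The 4 other beta-type paralogs were also lower in older than in younger flies on both diets. *Prosbeta2R1* had a log2 CPM of 1.93 in older food, 1.36 in older water, 3.53 in younger food and 3.59 in younger water. *Prosbeta2R2* had 1.85, 1.54, 3.76 and 3.82 in the same conditions. These copies of the trypsin-like subunit were 3.03- and 3.74-fold lower in older flies on food. *Prosbeta4R1* had 2.74 in older food, 2.14 in older water, 3.74 in younger food and 4.06 in younger water. *Prosbeta4R2* had 3.16, 2.39, 4.95 and 4.74 in the same conditions. *Prosbeta4R1* had the smallest age difference of the 11 on food, 2.00-fold lower in older flies, against 3.46-fold for *Prosbeta4R2*.

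The regulatory paralogs copy 3 ATPases and a lid subunit. *Rpt6R* had a log2 CPM of 3.86 in older food, 3.33 in older water, 5.49 in younger food and 5.24 in younger water. *Rpt3R* had 2.61, 2.11, 4.30 and 4.26, and *Rpt4R* had 2.37, 2.09, 4.33 and 4.26, in the same conditions. Each ATPase paralog was lower in older flies, by 3.09-, 3.22- and 3.88-fold on food and by 3.76-, 4.41- and 4.49-fold on water for *Rpt6R*, *Rpt3R* and *Rpt4R*. *Rpn12R* had 3.02 in older food, 2.32 in older water, 4.82 in younger food and 4.67 in younger water, and was 3.48-fold lower in older flies on food and 5.12-fold lower on water. *Rpt3R* shares 20 exon bases with *Alg12* and *Prosbeta4R2* shares 69 with *Or23a* in the current annotation, and the other 9 paralogs share none with another gene. Of all 31 members 10 share exon bases with another gene, at most 15.7% of them (264 bases of *Rpn9*), and the library kit does not mark strand.

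Markers of the testis moved with the paralogs. Of the 25 testis markers listed, 25 were lower in older food than in younger food, 24 of them past 1.5-fold, with a median of -1.81. On water 24 of 24 were past 1.5-fold lower, with a median of -2.23. Their summed level was 1017 CPM in older food, 639 in older water, 2933 in younger food and 2822 in younger water, and that of the 11 paralogs was 79.0, 52.6, 255.7 and 241.3 CPM in the same conditions. The testis markers spanned a log2 CPM of 0.57 to 7.31 in older food, 0.43 to 7.01 in older water, 2.10 to 9.11 in younger food and 2.02 to 9.10 in younger water, and none was at 0 where listed. *aly* and *can*, which act in spermatocytes, were 3.06- and 3.44-fold lower in older food than in younger food, and *betaTub85D*, the testis beta tubulin, was 3.50-fold lower. Accessory gland markers, from the other male reproductive organ, were also lower with age, 8 of 11 past 1.5-fold on each diet, with medians of -1.17 on food and -1.10 on water. For both lists of markers the background was 24% of all genes past 1.5-fold lower on food and 22.8% on water. The part of the amount of testis tissue in the paralogs' differences was not tested.

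Set against their ubiquitous namesakes, the paralogs had a smaller share in older flies. Per kilobase, the median paralog stood at 3.98% of its namesake in older food, 2.04% in older water, 20.8% in younger food and 21.7% in younger water. The highest share in all 4 conditions was that of *Prosalpha6T*, at 11.5% of *Prosalpha6* in older food, 7.36% in older water, 43.2% in younger food and 47.3% in younger water. The lowest was that of *Prosalpha3T*, at 1.49%, 0.841%, 6.24% and 6.84% of *Prosalpha3* in the same conditions. The 2 alpha-type copies thus bracketed all the others. *Rpn12R* came next, with 8.68% of *Rpn12* in older food, 4.09% in older water, 40.4% in younger food and 39.3% in younger water. Both older shares lay below both younger shares in each of the 11 pairs. The namesakes *Prosalpha3*, *Prosalpha6*, *Prosbeta4* and *Rpt6* were deposited under the older names *Pros29*, *Pros35*, *CG17331* and *Pros45*.

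**Figure D3:**
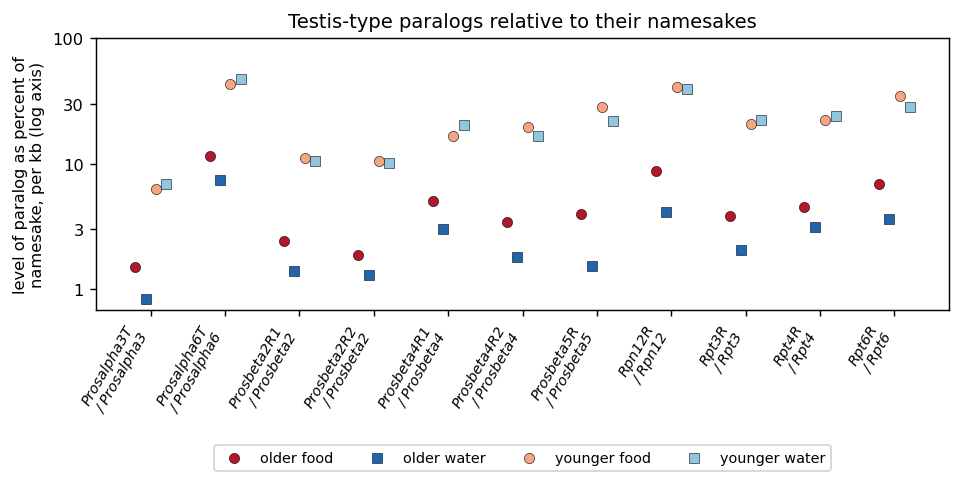
Level of each testis-type paralog as a percentage of its ubiquitous namesake (vertical log axis, both per kb of longest transcript) for the 11 pairs in the 4 conditions. Points are ratios of pooled means without errors. The older points (medians 3.98% on food and 2.04% on water) lie below the younger points of the same diet (20.8% on food and 21.7% on water) in every pair.

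Food against water gave smaller differences, and core and regulatory genes did not share a direction in younger flies. In younger flies all 12 regulatory genes were higher on food than on water, with a median of 0.21, whereas 7 of 8 core genes were lower, with a median of -0.07. Of all 12100 genes, 6725 were higher and 5355 lower. None of the 20 was past 1.5-fold, where 5.36% of all 12100 genes were past it higher and 3.61% lower. *Rpn11* had the largest difference, with a log2 CPM of 6.64 in younger food and 6.24 in younger water (0.40), followed by *Rpn1* at 0.38 and *Rpn9* and *Rpn2* at 0.33. The core genes lay between -0.19 for *Prosalpha1* and 0.06 for *Prosbeta3*, and the regulatory genes between 0.10 for *Rpt1* and 0.40 for *Rpn11*, so that the ranges did not overlap. Relative to ribosomal protein genes, whose own median difference was -0.47, all 20 were higher on food, with core genes at a median of 0.38 and regulatory genes at 0.67. That scaling raises the difference of every gene by the same amount, and all genes were not counted under it. The distance between the classes is the same under any scaling of a whole table.

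In older flies, 18 of the 20 ubiquitous genes were lower on food than on water, although the median of all genes was 0.14 higher. Of all 11589 genes, 3880 were lower. The median of the 20 was -0.27, and the lowest was *Prosbeta5* at -0.48, with *Rpn3* next at -0.46. *Rpn11* at 0.06 and *Rpn7* at 0.04 were the 2 that were not lower. None of the 20 was past 1.5-fold lower, where 2.57% of 11589 genes were. Core genes had a median of -0.30 and regulatory genes of -0.23. Relative to ribosomal protein genes, whose median was also lower on food (-0.23), the 20 split into 8 higher and 12 lower with a median of -0.05, and centred on all genes 20 of 20 were lower.

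The testis-type paralogs went the other way in older flies. All 11 were higher in older food than in older water, with a median of 0.57, where 7697 of all 11589 genes were higher. All 11 were higher under each of the 4 scalings as well. Those past 1.5-fold were *Prosbeta5R* (0.91), *Prosbeta4R2* (0.77), *Rpn12R* (0.70) and *Prosbeta4R1* (0.60), 4 of 11, where 15.9% of all genes were past it higher. The testis markers were higher as well, 24 of 24, with a median of 0.78. Of these markers 17 were past 1.5-fold, against the same 15.9% of all genes. In younger flies the paralogs had no common direction, with 6 higher and 5 lower on food and a median of 0.04. The 4 regulatory paralogs were among the 6 that were higher. All 11 were higher in younger food relative to ribosomal protein genes, a scaling that raises this difference for every gene.

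**Figure D4:**
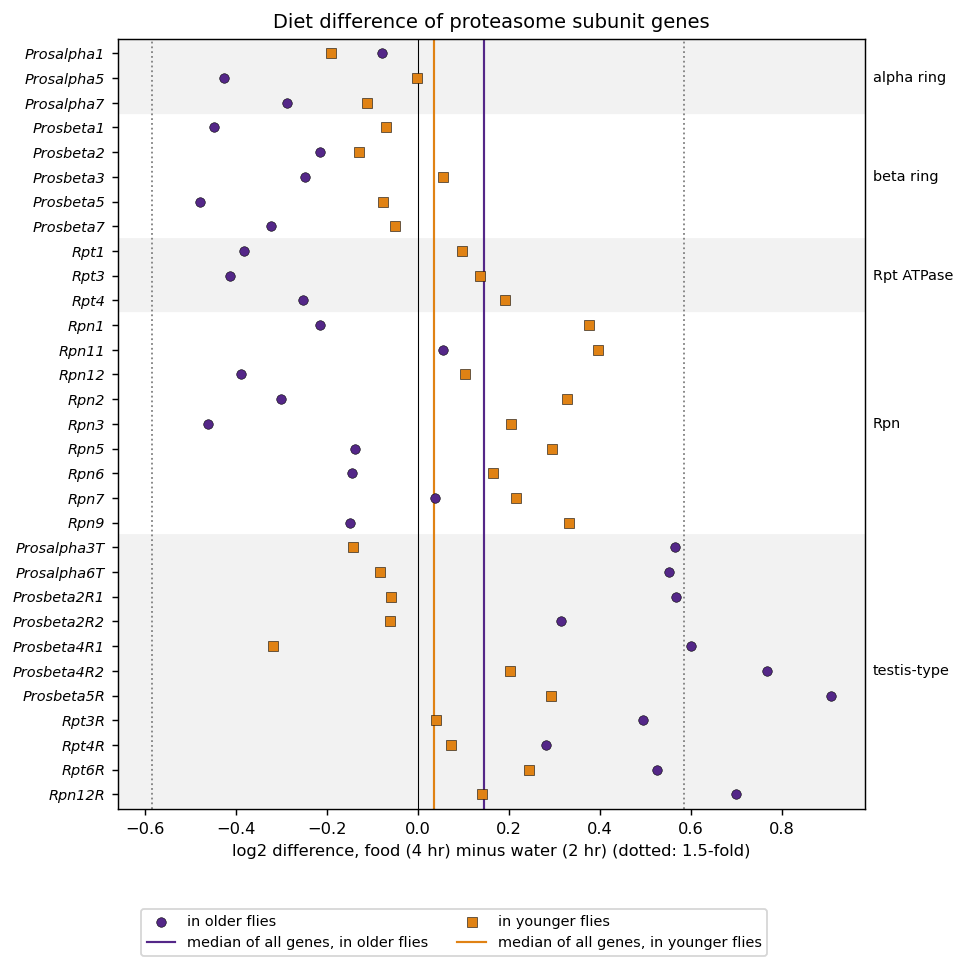
Difference in log2 CPM between flies on food for 4 hr and on water for 2 hr (horizontal axis) for each proteasome subunit gene, in older flies (circles) and younger flies (squares), with vertical lines at the medians of all genes (0.14 and 0.04) and dotted lines at 1.5-fold. No errors can be given. In younger flies the Rpt and Rpn genes lie to the right (median 0.21) and the core genes mostly to the left (median -0.07). In older flies 18 of 20 ubiquitous genes lie to the left and all 11 testis-type genes to the right. Relative to ribosomal protein genes, all 20 ubiquitous genes lie to the right in younger flies and 8 in older flies. That scaling moves every gene to the right.

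The age difference on food therefore departed from that on water in opposite directions for the 2 kinds of subunit. Diet and hours changed together and injured and uninjured libraries were pooled, so this cannot be assigned to diet. The age difference on food minus that on water, which equals the diet difference in older flies minus that in younger flies, was negative for 19 of 20 ubiquitous genes, with a median of -0.41. It was most negative for *Rpn3* at -0.67, *Rpn2* at -0.63 and *Rpn1* at -0.59. For regulatory genes the median was -0.48 and for core genes -0.29. For the testis-type paralogs it was positive for 11 of 11, with a median of 0.56 and a maximum of 0.92 for *Prosbeta4R1*. Over all 11457 genes in the 4 tables the median was 0.13, and 7990 were positive. These values use the same 4 tables as the differences above and are no separate evidence for them.

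The tables hold 17 further proteasome genes under older names, which the naming rule did not reach and which current RefSeq symbols identify. Of these, 13 are ubiquitous subunits and 4 are testis-type copies. *CG30382* (*Prosalpha1R*) was placed by choice among the 13, as a near copy of *Prosalpha1*, although its current symbol ends in R. As a share of all counts, the 13 ubiquitous genes were all higher in older flies on both diets, with medians of 0.43 on food and 0.77 on water, but relative to ribosomal protein genes all 13 were lower on food and 5 on water. Of all genes, 6961 of 11806 were higher in older flies on food and 6429 of 11531 on water. Of the 13, 3 were past 1.5-fold higher on food, near the 19.9% of all genes, and 8 on water, where 14.6% of all genes were. Relative to ribosomal protein genes none was past it higher on either diet. *Mov34* (*Rpn8*, the partner of *Rpn11*) had the largest difference on water at 1.06, with 7.79 in older water and 6.73 in younger water, and *Pros45* (*Rpt6*) was next at 1.03. The 4 testis-type copies, *CG31742*, *CG6789*, *Pros28.1A* and *Pros28.1B*, were past 1.5-fold lower in older flies on both diets, with medians of -1.34 on food and -2.03 on water. These 17 were chosen after the values of the 31 had been seen. In younger flies the split between core and regulatory genes was less complete among them. On food, 5 of 7 core genes were lower and 4 of 6 regulatory genes higher, the exceptions being *Pros25* and *Pros35* in the core and *Pros45* and *CG13349* (*Rpn13*) in the regulatory particle.

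A list of 20 other genes of the ubiquitin-proteasome pathway, searched by 25 current and older symbols, was listed whole. On food 18 were higher and 2 lower in older flies, with a median of 0.39, where 6961 of all 11806 genes were higher. Relative to ribosomal protein genes, 3 of the 20 were higher and 17 lower. On food 6 of the 20 were past 1.5-fold higher and 1 lower, against 19.9% and 24% of all genes. On water 17 were higher and 3 lower, with a median of 0.48, where 6429 of all 11531 genes were higher. Relative to ribosomal protein genes, 5 of the 20 were higher and 15 lower on water. On water, too, 6 were past 1.5-fold higher and 1 lower, against 14.6% and 22.8% of all genes. *cnc* encodes the transcription factor CncC, which activates proteasome genes in flies, and had a log2 CPM of 8.79 in older food, 8.83 in older water, 8.11 in younger food and 8.21 in younger water. *Keap1*, its inhibitor, had 5.96, 6.03, 4.39 and 4.77 in the same conditions, the largest age difference of the list at 1.57 on food and 1.252 on water. *REG*, the alternative cap of the core, had 7.05, 7.28, 6.13 and 6.33. All 3 were higher in older flies on both diets, but relative to ribosomal protein genes *cnc* was lower on food and hardly differed on water.

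Among genes that bring substrates to the proteasome, the shuttle receptors *Rad23* and *Ubqn* were higher in older flies by 0.70 and 0.77 on food and by 0.92 and 0.62 on water, but relative to ribosomal protein genes both were lower on food. *Npl4*, a cofactor of the segregase TER94, had a log2 CPM of 11.04 in older food, 11.17 in older water, 9.70 in younger food and 10.61 in younger water. It was past 1.5-fold higher in older flies on food (1.35) and was the 1 gene of the list past 1.5-fold by diet, at -0.92 in younger food minus younger water. *CG13779*, the small regulatory subunit Sem1, was 0.90 higher in older flies on water. *Uch-L3*, now named *Uch-L5*, a deubiquitinase that binds the proteasome, was the 1 gene past the threshold in the other direction, at -0.87 on food and -0.92 on water. By diet, 14 of 20 were lower on food in older flies and 9 of 20 in younger flies, with medians of -0.09 and 0.03. Of all genes, 3880 of 11589 were lower on food in older flies and 5355 of 12100 in younger flies.

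Other large complexes were set beside the ubiquitous subunits for comparison. Cytosolic ribosomal protein genes were higher in older flies with a median of 0.82 on food and 0.59 on water. Of these genes, 76 and 44 of 87 were past 1.5-fold higher, against 19.9% and 14.6% of all genes. The age difference of ribosomal protein genes was larger on food in 85 of 87, where that of the ubiquitous proteasome genes was smaller on food in 19 of 20. Of all 11457 genes in the 4 tables, it was larger on food in 7990. Vacuolar ATPase subunit genes had medians of 0.13 on food and -0.10 on water. Of them, 10 of 32 on food and 10 of 31 on water were past 1.5-fold lower, against 24% and 22.8% of all genes. Both lists hold every gene of the name, copies such as *RpL22-like* and *Vha100-3* included, which were the lowest of their lists on food. The 20 ubiquitous proteasome genes, in contrast, leave out the testis-type copies, so the lists are not alike. No test of these differences was possible. Of other tissue markers, the 10 muscle and head genes had age medians of -0.27 on food and 0.21 on water, with 4 higher and 6 lower on food and 6 higher and 4 lower on water. Those past 1.5-fold lower on both diets were the muscle genes *Act88F* (-4.20 on food and -2.16 on water), *TpnC4* (-3.09 and -2.64), *Mhc* (-2.56 and -1.86) and *up* (-1.50 and -0.71). Those past it higher were the eye genes *ninaE* (0.94 on food and 0.72 on water) and, on food, *Arr2* (0.68) and *Arr1* (0.62). Ovary and yolk markers were mostly not listed, with 4 of 16 present in younger food, where they summed to 159.9 CPM, against 15.6 in older food, 34.5 in older water and 12.6 in younger water. Neither set was tested for a part in the proteasome values.

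**Figure D5:**
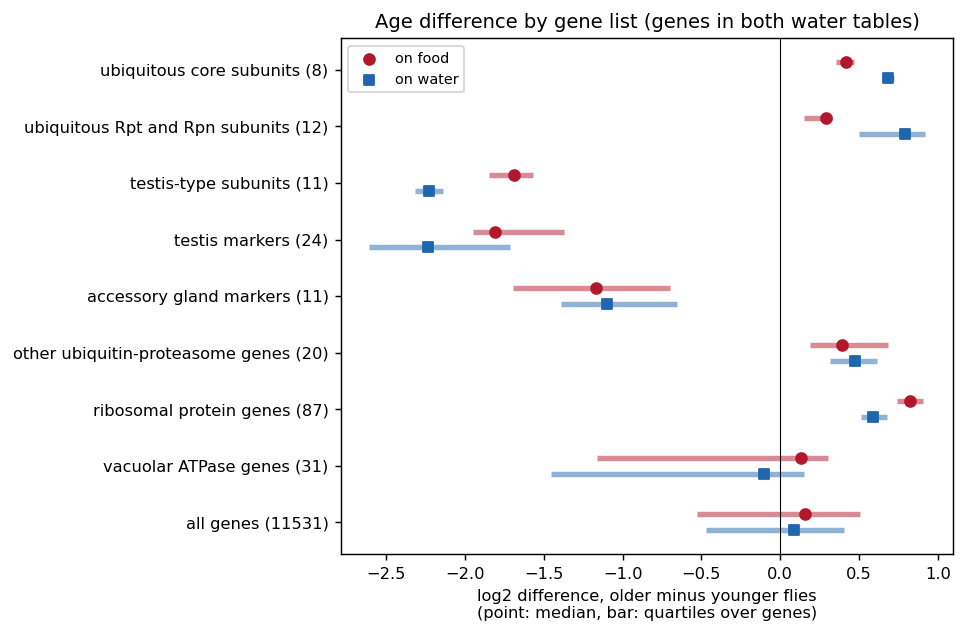
Median difference in log2 CPM between older and younger flies (points) with the quartiles over genes (bars) for the proteasome classes and the gene lists set beside them, on food (circles) and on water (squares). The number of genes in both water tables is in parentheses. The bars show spread among genes and no error of measurement. Ubiquitous core and regulatory subunits lie further right on water (0.68 and 0.79) than on food (0.42 and 0.29), ribosomal protein genes further right on food (0.82 against 0.59), and testis-type subunits lie with the testis markers on the left. Relative to ribosomal protein genes, which lie furthest right on food, the ubiquitous subunits lie left of 0 on food.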

How the data were processed

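RNA-seq was made from polyA mRNA of whole male flies, 3 libraries in each of 8 groups. Per the paper's methods and the submitters' processing notes, the authors used Skewer for trimming, STAR 2.4.2a for alignment to build dm3 and RSEM 1.2.22 for expected counts, from which low or empty values were removed before edgeR 3.10.5 was run on the injured and uninjured libraries of a condition. The deposited tables, 1 per condition, hold the authors' mean expression on the log2 scale (log2 CPM), which was used here, and 4 columns of their comparison (log2 fold change of injured over uninjured, likelihood ratio, p-value and FDR), which were not used. No values per library were used, so depth is unknown and no error, replicate check or test could be made. The planned count test was not run for this reason. In the older water table, 292 empty rows were left out.

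Differences between tables (older minus younger, food minus water) were taken gene by gene over genes listed in both and counted past 1.5-fold with no pseudocount added. Levels of different genes were compared per kb of the longest transcript in Ensembl release 115 (BDGP 6), used for names, lengths and exon overlaps only, since the builds differ. Of 12506 names, 12361 matched a RefSeq symbol or synonym. Values are given for the highest and lowest member of each class, all testis-type paralogs and namesakes, and members and listed genes past 1.5-fold. Other genes named, and the genes under older names, were chosen after their values were seen. Members and lists were chosen with earlier results of these data known. Alternatives were the scaling of each table, the threshold, a minimum level, a pseudocount, the length and the member list. Arithmetic was tested on simulated data. Python 3.11.15, numpy 2.4.6, pandas 2.3.3 and matplotlib 3.10.9 were used.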

Additional observations from a re-analysis of the deposited data

How the results depend on the processing

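Differences are older minus younger or food minus water (log2), and a median is said to have moved where it changed by over 0.1. Relative to the median ribosomal protein gene, older food minus younger food had medians of -0.43 (core), -0.56 (regulatory) and -2.54 (testis-type), with 0 ubiquitous genes past 1.5-fold higher and 7 lower, and *Prosbeta2* (-0.27), *Prosbeta5* (-0.10), *Rpt3* (-0.10), *cnc* (-0.17), *Rad23* (-0.15) and *Ubqn* (-0.089) changed sign. In the same scaling, older water minus younger water had medians of 0.065, 0.17 and -2.85, with 1 ubiquitous gene past it higher and 1 lower, and *Prosalpha7* (-0.021) and *cnc* (-0.004) changed sign. Older food minus older water then had medians of -0.0825, -0.012 and 0.79, with 9 testis-type genes past it higher. Younger food minus younger water had medians of 0.38, 0.67 and 0.50, with 10 ubiquitous and 4 testis-type genes past it higher.

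Centred on all genes, the medians were 0.25, 0.12 and -1.86 for older food minus younger food, with 0 ubiquitous genes past 1.5-fold higher, and -0.45, -0.38 and 0.42 for older food minus older water, with 3 ubiquitous genes past it lower and 2 testis-type genes higher. A pseudocount of 1 CPM gave testis-type age medians of -1.56 on food and -1.94 on water. At a lower threshold (a ratio of 5 to 4), 10 ubiquitous genes were higher in older flies on food, 8 lower in older food than in older water and 4 higher in younger food, and 9 testis-type genes were higher in older food than in older water. At 2-fold these became 0 and 2 ubiquitous genes higher in older flies on food and water, and 0 testis-type genes higher in older food. With the older names added, 6 ubiquitous genes were past 1.5-fold higher on food and 23 on water, and the testis-type median for younger food minus younger water was -0.06. Per kb of coding sequence, median levels were 6.93, 7.33, 6.65 and 6.38 (ubiquitous) and 3.09, 2.18, 4.37 and 4.69 (testis-type) in older food, older water, younger food and younger water, and the paralog to namesake medians were -4.43, -5.12 and -2.14 (log2) in the first 3. With a common total for each table, a minimum log2 CPM of 1 or *Prosalpha1* left out, no median moved by over 0.1. The counts past 1.5-fold were as given, except that the common total left 2 of 3 ubiquitous genes past it higher on food. The minimum also removed *Prosalpha3T*, at 0.60 in older water, from the age difference on water, and the other 10 testis-type genes were all past it lower. Leaving out *Prosalpha1* and adding the older names were chosen after seeing the data.

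No paired analysis was possible because the values used are means over the libraries of a condition, so neither the replicate block nor leaving out a replicate was run.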
